A study of Mus musculus with 4 samples.

Results

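Gene-flanking MafG peaks are the places in mouse liver where tagged MafG was found between genes but still close to one. They were taken from the deposited peak list by position alone. A peak counted when its midpoint lay on chromosomes 1 to 19, outside every protein-coding gene, and over 1 kb and up to 50 kb from the nearest protein-coding gene end. Of the 68763 peaks in the list, 66904 lay on those chromosomes, and 16497 of these (24.7%) were gene-flanking. Genes came from the RefSeq table of GRCm38.p6, the assembly also called mm10.

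The assay was chromatin immunoprecipitation with sequencing, and the 4 libraries came from C57BL6/J mouse liver. From livers overexpressing MafG fused to the BLRP tag (treatment label Ad BLRP MAFG) came 2 libraries, and 2 came from livers given the tag control (Ad BLRP Control). Nuclei of all 4 were fixed with formaldehyde and precipitated with the same Avi-tag antibody, and the labels used here give no age and no untreated liver. The MafG precipitated was the overexpressed, tagged protein, so occupancy by the native protein was not measured. The list was called on 1 collection of BLRP-MafG tags against 1 collection of control tags. It holds no value per library, so there is no replicate check, no standard deviation and no test below. Intervals of heights and of ratios to control are exact 95% intervals that cover the counting of tags only. The file header gives 20406492 BLRP-MafG tags, and the deposited folds imply about 17214005 control tags. Heights are normalized tag counts, that is tags in a peak scaled to 10000000 tags in all.

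MafG belongs to the small MAF proteins. These bind DNA through a basic leucine zipper but cannot activate transcription by themselves. As a homodimer it is known as a repressor. Paired with a CNC factor it takes on that partner's function: NRF2 activates antioxidant genes, and BACH1 represses them, the haem oxygenase gene Hmox1 being the best known case. In the palindromic MAF recognition element, TGCTGA arms overlap an AP-1 or CRE core. The antioxidant response element bound by CNC and MAF pairs is usually written with the core TGACNNNGC. The title of the series puts MafG in the setting of bile acid synthesis and metabolism, where FXR (Nr1h4) senses bile acids and Cyp7a1 and Cyp8b1 are the enzymes most often described as its repressed targets.

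The sequences below show what lies under such peaks where RefSeq promoter windows (250 bases before to 50 after a gene start) reach into them. No genome was used, and 161 windows overlapped a gene-flanking peak, all 161 of them promoters of long non-coding RNA (lncRNA) genes. Windows of protein-coding genes could not be among them, because the rule keeps peaks over 1 kb from such genes. Of the 161 windows, 114 overlapped by 100 bp or more. These 114 windows lie under 101 peaks, so some share bases. Of the 17 under peaks with a height of at least 20, 9 hold TGACNNNGC inside the peak, and the 8 shown first are among them. They run 5′ to 3′ on the strand of the lncRNA gene (RefSeq, GRCm38.p6), and only the bases shared by window and peak are printed. Capitals mark matches to TGACNNNGC and TGCTGA on either strand, so TGCTGA also appears as TCAGCA. TGACTCAGC is one case of TGACNNNGC, and both can overlap TGCTGA.

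Gm38137, chr1:60863000-60863151, + strand, peak of 123.0 nearest to Ctla4: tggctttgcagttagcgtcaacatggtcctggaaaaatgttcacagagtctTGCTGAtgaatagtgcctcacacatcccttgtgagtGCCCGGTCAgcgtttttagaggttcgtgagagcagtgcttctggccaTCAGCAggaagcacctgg
Gm46833, chr3:33975404-33975525, - strand, peak of 90.7 nearest to Fxr1: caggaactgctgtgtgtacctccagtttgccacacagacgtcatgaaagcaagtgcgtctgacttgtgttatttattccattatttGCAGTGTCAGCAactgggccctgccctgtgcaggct
Gm36784, chr13:48708044-48708238, + strand, peak of 78.9 nearest to Barx1: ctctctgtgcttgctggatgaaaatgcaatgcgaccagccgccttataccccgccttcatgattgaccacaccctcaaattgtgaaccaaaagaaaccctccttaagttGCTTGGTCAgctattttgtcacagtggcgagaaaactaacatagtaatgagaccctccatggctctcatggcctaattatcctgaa
Gm32348, chr12:85569763-85569873, + strand, peak of 61.7 nearest to Jdp2: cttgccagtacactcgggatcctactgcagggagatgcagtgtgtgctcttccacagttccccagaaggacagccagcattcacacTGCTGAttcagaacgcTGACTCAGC
Gm33067, chr7:39151393-39151569, + strand, peak of 57.3 nearest to Gm1988: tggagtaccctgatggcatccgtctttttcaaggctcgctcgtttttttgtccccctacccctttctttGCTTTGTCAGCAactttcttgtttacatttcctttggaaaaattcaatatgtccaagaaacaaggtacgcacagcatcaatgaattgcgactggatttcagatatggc
Gm52309, chr17:22188544-22188743, + strand, peak of 55.4 nearest to Zfp994: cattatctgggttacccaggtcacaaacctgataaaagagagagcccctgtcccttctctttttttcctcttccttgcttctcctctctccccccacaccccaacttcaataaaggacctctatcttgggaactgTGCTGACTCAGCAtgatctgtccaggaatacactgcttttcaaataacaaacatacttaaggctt
Gm36373, chr3:130692724-130692902, - strand, peak of 27.4 nearest to Ostc: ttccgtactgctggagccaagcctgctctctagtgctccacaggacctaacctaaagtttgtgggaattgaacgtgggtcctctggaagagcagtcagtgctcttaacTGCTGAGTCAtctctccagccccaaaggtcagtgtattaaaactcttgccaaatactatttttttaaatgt
Gm51916, chr11:96988463-96988623, - strand, peak of 24.0 nearest to Sp2: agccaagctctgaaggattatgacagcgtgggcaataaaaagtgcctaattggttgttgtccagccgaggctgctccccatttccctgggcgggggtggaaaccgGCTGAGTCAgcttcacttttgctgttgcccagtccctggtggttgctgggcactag

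In Gm52309 the capitals form 1 unbroken run, in which TGCTGA and its reverse complement TCAGCA stand on either side of a single C. The windows of Gm46833 and Gm33067 also carry both motifs run together, and in Gm36373 the match to TGACTCAGC and that to TGCTGA overlap as well. The windows of Gm36784 and Gm51916 hold TGACNNNGC and no TGCTGA. Under 3 other tall peaks the shared bases held no TGACNNNGC, and 2 of them are shown for contrast. The other is that of Gm52185 (peak of 69.6 nearest to Mpst), with neither motif.

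Gm36691, chr2:173148091-173148290, - strand, peak of 85.3 nearest to Pck1: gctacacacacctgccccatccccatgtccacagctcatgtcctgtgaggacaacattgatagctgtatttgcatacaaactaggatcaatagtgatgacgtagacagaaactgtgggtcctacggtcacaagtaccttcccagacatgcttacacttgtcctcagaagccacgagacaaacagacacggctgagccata
Gm33479, chr4:52958806-52959005, - strand, peak of 69.6 nearest to Olfr270: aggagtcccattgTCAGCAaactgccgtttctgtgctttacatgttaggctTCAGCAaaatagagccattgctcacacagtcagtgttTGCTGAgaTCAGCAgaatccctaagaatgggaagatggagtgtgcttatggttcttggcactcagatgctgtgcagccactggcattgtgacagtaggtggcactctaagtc

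The first of these, 4883 bp from Pck1 (the rate-limiting enzyme of gluconeogenesis), holds neither motif in the 200 bases shared with the peak. The second holds TGCTGA 4 times and no TGACNNNGC.

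Counted over whole 300-base windows, TGACNNNGC was present in 9 of the 17 windows under peaks of height 20 or more (52.9%) and in 11 of the 97 under lower peaks (11.3%). The 17 windows lie under different peaks. All windows that share a peak are among the 97, which thus count some peaks more than once. Over all 31365 RefSeq promoter windows the share was 12.5%, and over the 11310 lncRNA windows 11.5%. TGACTCAGC was found in 4 of 17 (23.5%), in 3 of 97 (3.09%), in 0.456% of all windows and in 0.539% of lncRNA windows. TGCTGA was found in 11 of 17 (64.7%), in 29 of 97 (29.9%), in 19.4% of all windows and in 22.0% of lncRNA windows. Over the 114 windows together the shares were 17.5% for TGACNNNGC and 35.1% for TGCTGA. In the 2122 promoter windows under MafG peaks that were not gene-flanking they were 19.6% and 25.7%. The windows under gene-flanking peaks below a height of 20 thus held TGACNNNGC about as often as all promoters, and those under taller peaks more often. Within the shared bases alone, 4 of 17 windows under taller peaks and 71 of 97 under lower peaks held neither TGACNNNGC nor TGCTGA. The motifs, the overlap of 100 bp and the split at a height of 20 were chosen after the data had been seen. A match is a description of these letters only, and sites were not tested.

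Gene-flanking peaks were about as tall as peaks inside genes. Their median height was 12.7 (lower to upper quartile 7.84 to 24.5), against 12.3 for the 29872 peaks inside genes and 12.3 for the 15323 peaks over 50 kb from any gene. The 5212 peaks within 1 kb of a gene end were lower, with a median of 10.8 (7.84 to 16.7). The median gene-flanking peak rested on 26 tags, for which counting alone allows 8.32 to 18.7. Heights ran from 4.41 to 905.6, and the 90th percentile was 50.5. At 50 or more, called tall below, were 1678 peaks (10.2%), and at 200 or more 189 (1.15%). The share of tall peaks was 10.7% inside genes, 10.4% over 50 kb away and 4.53% within 1 kb of gene ends. The tags were unevenly spread: the tallest 100 peaks held 8.97% of all tags in gene-flanking peaks and the tallest 1000 held 35.9%.

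The control collection was close to empty under these peaks. In it 7019 of them (42.5%) had 0 tags, the mean was 1.05 tags, and 13 peaks had 10 or more. The deposited fold over control had a median of 24.5, and the deposited fold over the surrounding 10 kb a median of 14.8. These folds are the peak caller's values. It kept no peak under a 10-fold excess over control or a 4-fold excess over the surroundings, so both medians are bounded from below by its limits. The limit over control also caps the control tags a kept peak can hold. The low control counts thus follow in part from that filter.

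Height did not change with distance from the nearest gene end in any visible way. The median was 12.7 at 1 to 2 kb (1106 peaks), 12.7 at 2 to 5 kb (2454), 12.3 at 5 to 10 kb (3009), 12.7 at 10 to 20 kb (3920) and 12.7 at 20 to 50 kb (6008). Tall peaks made up 9.76%, 9.78%, 9.67%, 10.1% and 10.7% of these classes in the same order. Across the 16497 peaks the Spearman correlation of height with distance was 0.0091, given as a description because neighbouring peaks share chromatin and all share 1 library collection. In 1 kb steps the median moved between 10.8 and 15.2 with no trend. Mean control tags were 1.04 to 1.07 in every class. No step in height was seen at either limit of the rule. The 251 peaks 0.8 to 1 kb outside genes had a median of 12.7, and the 231 peaks at 1 to 1.2 kb one of 12.3. At the outer limit, the 134 peaks at 49 to 50 kb had a median of 12.7 and the 135 at 50 to 51 kb one of 14.2.

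**Figure D1:**
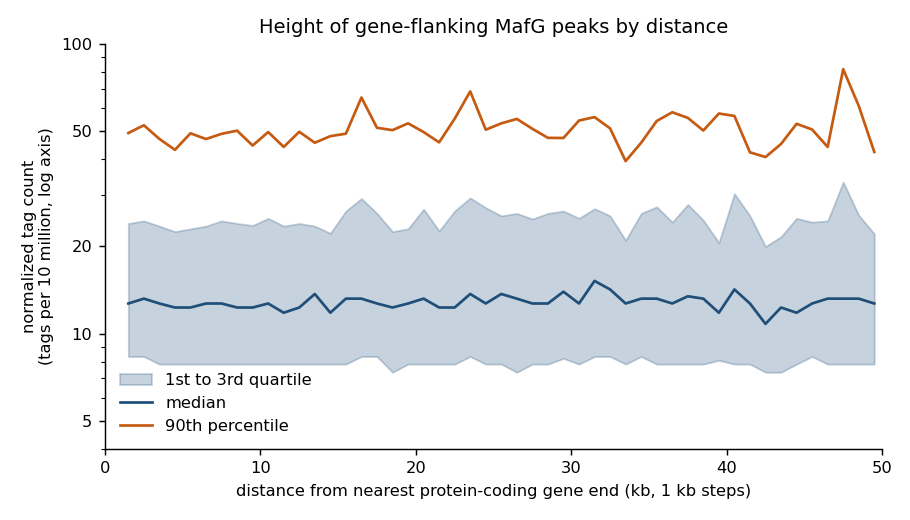
Normalized tag count (log axis, tags per 10000000) of gene-flanking peaks against distance from the nearest protein-coding gene end (kb, 1 kb steps); blue line, median; band, lower to upper quartile; orange line, 90th percentile. The median stays between 10.8 and 15.2 from 1 to 50 kb.

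The number of peaks, set against the room available at each distance, was higher close to genes. There were 36.9 peaks per Mb of flank at 1 to 2 kb, 32.2 at 2 to 5 kb, 31.0 at 5 to 10 kb, 29.5 at 10 to 20 kb and 28.0 at 20 to 50 kb. Tall peaks went from 3.61 per Mb at 1 to 2 kb to 3.15, 3.00, 2.99 and 2.99. Peaks per Mb at 1 to 5 kb were 1.20 times those at 20 to 50 kb (33.5 against 28.0). This order turned to 0.917 times (18.5 against 20.2) when only peaks with a deposited fold of at least 10 over their surroundings were kept. Peaks near genes stood less far above their surroundings: the median of the deposited fold over surroundings was 10.5 at 1 to 2 kb, 11.7, 14.0 and 15.7 in between, and 16.7 at 20 to 50 kb. Dividing height by that fold gives the implied level of the surroundings for a window of peak size, which had a median of 1.21 at 1 to 2 kb and of 0.839 at 20 to 50 kb. The fold over control showed no such course (Spearman correlation with distance 0.013, against 0.14 for the fold over surroundings). What raises the surroundings near genes was not tested, and assembly gaps and unmappable bases were not removed from the flanks.

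**Figure D2:**
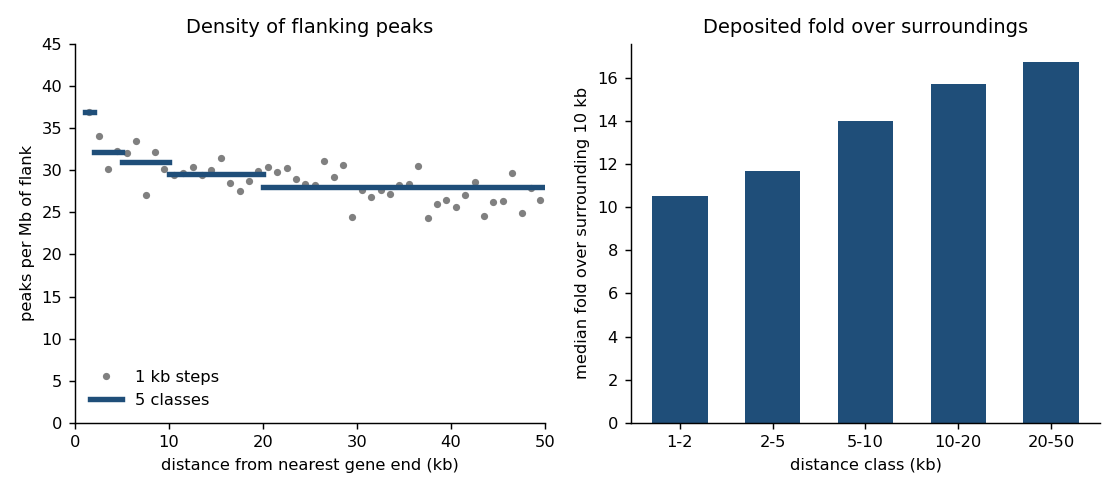
Left, gene-flanking peaks per Mb of flank against distance from the nearest gene end (kb; dots, 1 kb steps; bars, 5 distance classes); right, median deposited fold over the surrounding 10 kb in the same classes. Density is 36.9 per Mb at 1 to 2 kb and 28.0 at 20 to 50 kb, while the fold goes from 10.5 to 16.7.

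Peaks lay on both sides of genes at nearly the same density. Strand could be read from RefSeq promoter windows for 14734 of the 18455 protein-coding genes with a flank, for none on chromosome 18. Before the gene start lay 7151 peaks (30.5 per Mb of flank, median height 12.7) and after the gene end 5757 (29.2 per Mb, median 12.3), a ratio of 1.04 with a Poisson interval of 1.01 to 1.08 that treats peaks as independent counts. With at least 20-fold over control the interval was 0.987 to 1.08, and outside non-coding genes 0.979 to 1.06. Neighbouring peaks are not independent, so whether the ratio differs from 1 cannot be read from these intervals. The other 3589 peaks were nearest to a gene of unknown strand. At 1 to 2 kb the median was 13.7 before the start (453 peaks) and 11.8 after the end (411 peaks). At this distance 174 peaks on each side had 0 control tags, which is 38.4% before the start and 42.3% after the end.

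Most gene-flanking peaks lay outside any annotated gene, whether coding or not. These were 13596 (82.4%), while 2533 (15.4%) lay in a lncRNA gene and 368 in another non-coding gene or pseudogene. Height hardly differed, with medians of 12.7, 12.7 and 11.8. Both genes that bound the gap were within 50 kb for 7521 peaks (45.6%), so the nearest gene is one of a pair of candidates for these. Peaks per Mb of flank ranged from 25.5 on chromosome 7 to 37.4 on chromosome 11, and the median height from 11.8 to 13.7 over the 19 chromosomes.

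A smaller share of peaks was tall where another lay close by. Of the gene-flanking peaks, 3936 (23.9%) had another within 5 kb in the same gap between genes, and 5.89% of these were tall. Among the 12561 without such a neighbour 11.5% were tall, and 178 of the 189 peaks with a height of 200 or more were found there. The medians were close, 12.3 with a neighbour and 12.7 without. The fold over the surroundings had medians of 9.13 and 17.5, which a neighbour inside the same 10 kb lowers by construction. The caller dropped peaks under 4-fold over their surroundings, so low peaks beside tall ones could be missing, and the split of tall peaks by neighbour is set in part by that filter. The distance of 5 kb was chosen after the data had been seen.

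Of the 20665 protein-coding genes, 18455 had any flank of this kind, meaning bases outside genes, over 1 to 50 kb away and nearer to that gene than to any other. Of these genes, 8683 (47.0%) were the nearest gene of at least 1 gene-flanking peak, 1522 (8.25%) of at least 1 tall one, and 407 (2.21%) of 5 or more. The flank length went with these counts: its median was 42.2 kb for genes with a peak, 9.61 kb for genes without, and 73.6 kb for genes with 5 or more. The Spearman correlation of the number of peaks with flank length was 0.57 across genes. Over all flanks there were 0.2995 peaks per 10 kb. Height differed little with the number of peaks at a gene. At genes with 5 or more the median was 13.2, 9.91% of peaks were tall and 1.37% reached 200. At genes with 1 these were 12.7, 10.7% and 1.12%.

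Bhlhe40 and Zfp608 had the most, with 11 peaks each. Bhlhe40 (gene ID 20893, chr6:108660629-108666925) encodes the circadian repressor DEC1, and its peaks lay on both sides, 1683 to 44870 bp away. Their heights were 5.39, 5.88, 8.33, 9.80, 11.3, 13.2, 14.2, 21.6, 28.4, 29.4 and 39.7, so none was tall and the median of 13.2 was that of an ordinary peak. Zfp608, a zinc finger gene (gene ID 269023), had peaks of 4.90 to 43.6 with a median of 8.82. Most of the Zfp608 peaks and several of the Bhlhe40 peaks lay inside annotated non-coding genes. Among all gene-flanking peaks, 82.4% lay outside any annotated gene. The ranking was not repeated without peaks in non-coding genes. With 98.0 kb of flank each, both genes had 1.12 peaks per 10 kb.

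Helt, N4bp1 and Atg4c followed with 10 peaks each. Helt encodes a bHLH repressor of neural development, and the other gene of its upstream gap is Acsl1, the main long-chain acyl-CoA synthetase of liver. Of the Helt peaks 7 lay on that side, among them both tall ones of 142.1 and 76.9. The tall ones are 24208 and 23570 bp from Helt, but 152081 and 152719 bp from Acsl1, beyond the 50 kb of the rule. N4bp1 (a Nedd4-binding protein) had 1 tall peak of 97.5 after its end, and its others ran from 5.39 to 35.8. At Atg4c, an autophagy protease, 5 peaks lay before the start and 5 after the end, with heights of 7.84 to 49.0.

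Psma1, a core subunit of the proteasome, had 9 peaks, and all 9 lay before its start. They were 4605 to 47200 bp away with heights of 9.31, 16.2, 13.2, 45.1, 32.3, 7.84, 10.8, 25.5 and 14.7 in order of distance, so height followed no course along the gap. The other gene of that gap is Pde3b. Abcc12 (an ABC transporter), Egln3 (a prolyl hydroxylase acting on hypoxia-inducible factor) and Ndfip1 (an adaptor of Nedd4 ubiquitin ligases) also had 9 each. Their tallest peaks were 23.5, 31.9 and 62.2.

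The last 6 places of the first 15 went to genes with 8 peaks. Ties were ordered by summed height, so tall peaks at these 6 follow in part from that choice. Tcim, a small regulator of transcription, had heights of 6.86, 13.2, 17.6, 19.6, 22.1, 23.5, 91.1 and 331.8. Its tallest peak lies 25522 bp away in the gap toward Ido2. Hes1, the repressor induced by Notch, had its tallest peak of 125.0 at 2684 bp with 0 control tags, and 7 others of 5.39 to 25.0. BC107364 reached 163.7, Slc24a3 108.3, Tmem44 80.4 and Lrig2 69.6. Of all 18455 genes with a flank, 31 had 8 or more peaks and 5 had 10 or more.

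The choice of peaks and of the gene they are given to moved this ranking. With both bounding genes counted, 6 of the 15 stayed among the first 15, and with only peaks of at least 20-fold over control 7 did. Under the latter, Zfp608 went from 11 to 6 and Bhlhe40 from 11 to 8.

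**Figure D3:**
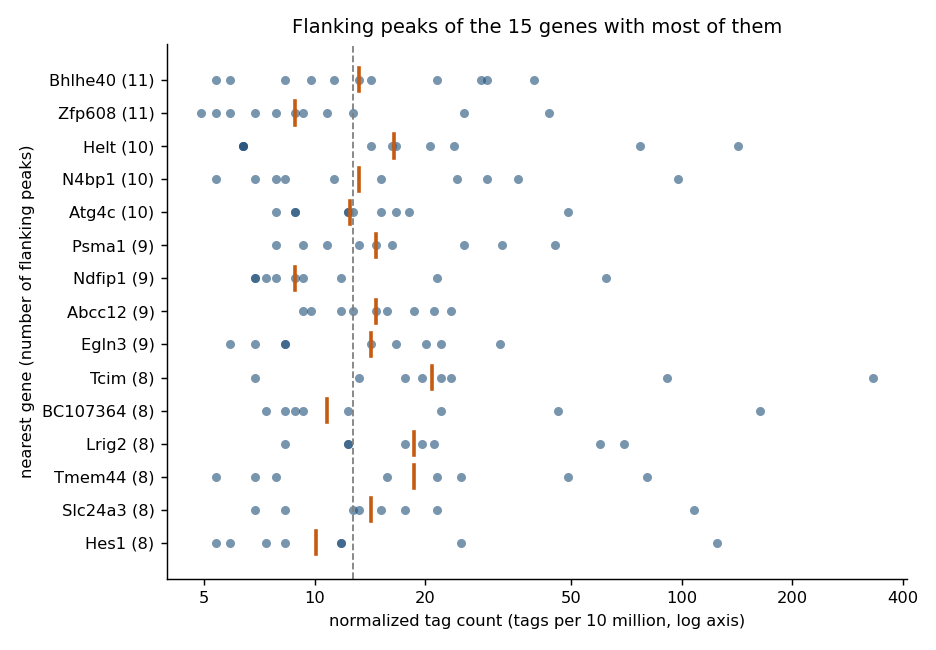
Normalized tag count (log axis, tags per 10000000) of each gene-flanking peak of the 15 genes that are nearest to most of them (number of peaks in brackets); dots, single peaks; orange bar, the gene's median; dashed line, median of all gene-flanking peaks (12.7). The peaks of these genes spread around the overall median, and that of 331.8 near Tcim is the highest.

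Among genes with at least 10 kb of flank and 3 peaks, Faf2 had most per length, with 4 peaks in 10.9 kb of flank (3.68 per 10 kb). Faf2, an adaptor for degrading proteins of the endoplasmic reticulum, had heights of 7.84, 8.82, 40.7 and 28.4. Dhrs7b, Anln, Tom1 and Trpv2 followed with 3 peaks each and 2.75 to 2.80 per 10 kb. All 5 lie just over the limit of 10 kb, and genes with shorter flanks and fewer peaks could rank among them. Hdc, with 1 peak in 3.15 kb, would stand below Faf2 and above the others. The 3 peaks after the end of Tom1 (15.7, 29.4 and 13.7) lie in the gap that Tom1 shares with Hmox1.

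That gap held 5 peaks and 2 of them were among the 189 of height 200 or more. Hmox1 encodes haem oxygenase 1, which breaks down haem. At chr8:75083883-75084083, 9635 bp from Hmox1 and 13862 bp from Tom1, the peak stood at 316.1 (292.2 to 341.4), with 645 BLRP-MafG tags against 1 control tag. At chr8:75089603-75089803, 3915 bp from Hmox1, it stood at 243.5 (222.6 to 265.9), with 497 tags against 4. On its other side, toward Mcm5, Hmox1 was nearest to 1 more peak, of 7.35. The next peak on the Tom1 side of the taller one was the lowest of the gap, 13.7.

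The tallest gene-flanking peaks were scattered over distances and chromosomes. The highest, 905.6 (864.8 to 947.8), lies at chr16:12772627-12772827 inside the lncRNA gene 4930414F18Rik, 11244 bp from LOC108167340. It held 1848 BLRP-MafG tags and 3 control tags, a ratio of 519.6 after scaling (177.5 to 2522). The second, 788.5 (750.4 to 828.0), lies at chr4:139935651-139935851 in the lncRNA gene 4933427I22Rik, 26422 bp after the end of the kelch gene Klhdc7a. Next was 727.7 (691.2 to 765.7), 1140 bp from Got1l1, a relative of aspartate aminotransferase, at chr8:27196219-27196419. It had 1485 tags and 0 in the control. The ratio after scaling was 418 when the control was set to the floor of 3 tags, and its lower 95% limit was 339.

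After these came 704.7 near Ptx4, a pentraxin (1900 bp, 0 control tags), and 691.0 at chr2:126591408-126591608. The latter lies 2151 bp after the end of Hdc, the enzyme that makes histamine, and 3265 bp from Slc27a2, an acyl-CoA synthetase of liver. It had the most control tags of the 15 tallest, 11, for a ratio of 108.1 (60.2 to 217.1). Then came 620.4 near Arf2 (a small GTPase), 573.8 before the start of the transcription factor gene Tfcp2l1, and 545.9 before that of Lrp2, the endocytic receptor megalin. Those of Fam222a (507.2), Auh (506.2), Fgd2 (489.1), Ggct (480.7), Afap1 (473.4), Slc7a14 (469.9) and Cryaa (462.1) complete the 15. Auh is an enzyme of leucine breakdown, and Ggct acts in the glutathione cycle. By side, 4 of the 15 lay before a gene start, 8 after a gene end and 3 beside a gene of unknown strand.

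**Figure D4:**
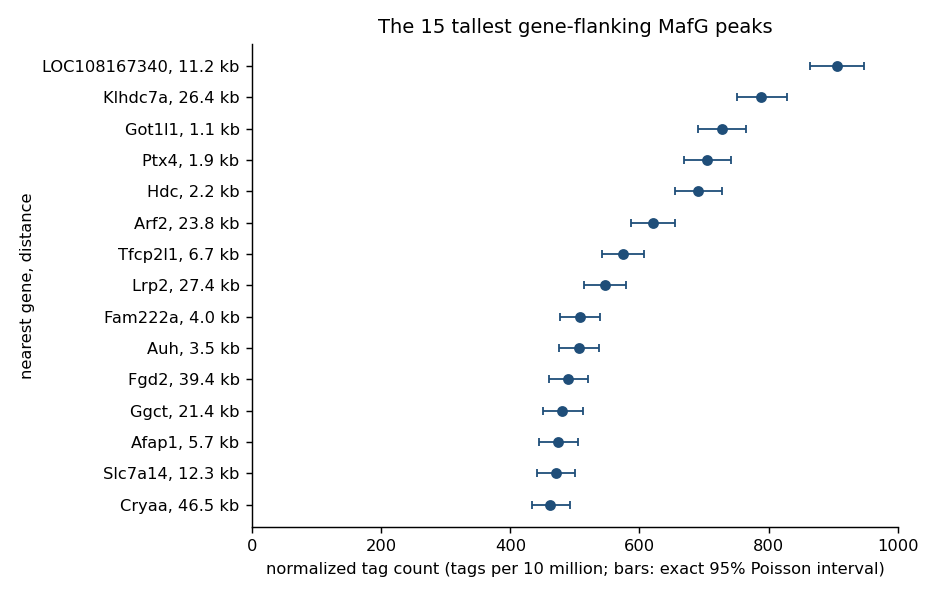
Normalized tag count (tags per 10000000, linear axis) of the 15 tallest gene-flanking peaks, each named by its nearest gene and its distance from that gene; bars, exact 95% Poisson intervals of tag counting. The peaks run from 462.1 to 905.6, and the first stands above the interval of the second.

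Their distances ran from 1140 to 46470 bp, and 4 of the 15 lay inside a lncRNA gene. Of the 189 peaks with a height of 200 or more 30 did, close to the 15.4% of all gene-flanking peaks. The nearest genes of the 15 tallest had 1 to 7 gene-flanking peaks each, and none was among the 15 genes with most peaks. The tallest peak of each distance class was that of Got1l1 at 1 to 2 kb, Hdc at 2 to 5 kb, Tfcp2l1 at 5 to 10 kb, LOC108167340 at 10 to 20 kb and Klhdc7a at 20 to 50 kb.

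The 21 gene lists describe where these peaks fell among known liver pathways. They are read against all genes with a flank, of which 47.0% had a peak and 8.25% a tall one, with 0.2995 peaks per 10 kb. At that share of tall peaks, a short list without one is not a result about its genes. No list was tested. Bile acid synthesis genes were near the background in density. In bile acid synthesis 11 of 19 genes with a flank had a peak and 2 had a tall one, with 0.343 peaks per 10 kb. Abcd3, the peroxisomal transporter of bile acid precursors, had 7, all before its start: 13.7, 7.84, 92.6, 14.7, 10.8, 18.6 and 16.7 in order of distance. Akr1d1, the 5-beta-reductase of the pathway, reached 66.2 at 45045 bp. Ch25h, the cholesterol 25-hydroxylase, reached 40.7 at 1955 bp, and Akr1c14 28.4.

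The P450 enzymes of bile acid synthesis named here had 3 flanking peaks, none of them tall. Cyp7a1, the rate-limiting enzyme of the classic pathway, had 2: 7.84 (4.48 to 12.7) at chr4:6262945-6263145, 2567 bp away, and 5.88 (3.04 to 10.3) at 19477 bp. Both are below the median of gene-flanking peaks, and the control held 1 and 0 tags there. Cyp8b1, which makes cholic acid, had 1 above that median, of 18.6 (13.2 to 25.6), at chr9:121924022-121924222, 7817 bp before its start. Cyp27a1 and Cyp7b1, of the acidic pathway, had none in 4.66 and 55.2 kb of flank. Peaks inside these genes or within 1 kb of their ends are not counted here, and the list leaves out weaker signal below the caller's limits.

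Among bile acid regulators 8 of 12 had a peak and 3 a tall one (0.500 per 10 kb). Nr1h4, the bile acid receptor FXR, had 138.2 (122.5 to 155.3) at chr10:89541959-89542159, 8414 bp before its start, with 0 control tags, and a second of 17.6. Fgfr4, the receptor through which FGF15 represses bile acid synthesis, had 115.6 at 14095 bp. Nr5a2 (LRH-1) had 7 peaks of 5.39 to 56.4. Among transporters 11 of 16 had one (0.406 per 10 kb), led by Slco2b1 with 143.6, Abcc2 (the canalicular MRP2) with 49.0, Slco1a4 with 29.9 and Slc10a1 (the uptake carrier NTCP) with 27.0.

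MafG's own family and its partners had 6 of 10 genes with a flanking peak (0.608 per 10 kb). Of the 18 peaks, 8 belonged to Bach1 in 98.0 kb of flank, with heights of 6.86 to 54.9. Nfe2l3 reached 35.8, Nfe2l2 (NRF2) 17.6 and Bach2 14.7. Mafg, Mafk, Nfe2 and Keap1 had none in their flanks. Other bZIP genes (AP-1, ATF and C/EBP) had peaks at 10 of 17 and no tall one, the highest being 33.8 at Cebpa and 28.4 at Fosl2.

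In the NRF2 antioxidant list 23 of 38 genes had a peak and 5 a tall one (0.427 per 10 kb). After Hmox1 came Idh1 (100.9, 0 control tags), which makes NADPH, Prdx1 (90.2), which reduces peroxides, and the glutathione-conjugate exporter Abcc1 (71.5). Nqo1, Gsr, Srxn1 and Slc7a11 were among the 15 without one. In haem and iron genes the count was 10 of 21 (0.418 per 10 kb), with Trf, the plasma iron carrier transferrin, at 102.4 and the transferrin receptor Tfrc at 47.0. Proteasome genes had 15 of 26 (0.683 per 10 kb), where Psma1 and Psmd7 gave 9 and 6 of the 32 peaks and Psmb4 the only tall one.

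Urea cycle and amino acid genes had the highest share with a tall peak among the 21 lists. In urea cycle and amino acid catabolism 12 of 15 genes had a peak and 5 a tall one (33.3%, against 8.25% of all genes), at 0.684 per 10 kb. Tat, which starts tyrosine breakdown, had 13.2, 13.7 and 39.2 before its start and 106.3 and 14.2 after its end. Arg1, the last enzyme of the urea cycle, reached 97.5 at 24591 bp, and Ass1 86.2 at 1259 bp with 0 control tags. Oat, of ornithine metabolism, had 6 peaks of 8.33 to 66.6. In gluconeogenesis 7 of 12 had one (0.562 per 10 kb), with Pck1 at 85.3, Foxo1 at 53.9 and G6pc at 35.3.

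Lipid genes included the tallest peak of all the lists. Gpam, which starts glycerolipid synthesis, had 403.8 (376.7 to 432.3) at chr19:55055991-55056191, 11544 bp after its end, and also 112.2, 22.1 and 17.2. Lpin2, a phosphatidate phosphatase, reached 135.3 and Me1 (malic enzyme) 69.1. Fatty acid and triglyceride synthesis as a list had 13 of 19 (0.543 per 10 kb), and fatty acid oxidation 7 of 17 (0.417), led by Etfa at 73.0 and Acadl at 55.4. Cholesterol synthesis and uptake had 11 of 21 (0.455), led by Sc5d at 112.7 and Sqle at 68.1.

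Clock genes had 13 of 17 with a peak and 3 with a tall one (0.574 per 10 kb). Bhlhe41, the close relative of Bhlhe40, had 149.5 at 2456 bp, the clock output factor Hlf 123.5, and Arntl (BMAL1) 88.2. Liver transcription factors had 15 of 16, in long flanks (median 59.2 kb), at 0.438 per 10 kb and with 1 tall peak, Nr2f2 at 75.5. Foxa2 had 6 peaks of 6.37 to 34.3 and Onecut1 8 of 5.88 to 19.1. Acute phase and interferon genes had 8 of 19 (0.557), led by Il1rn, the interleukin 1 receptor antagonist, at 207.3 and Socs3 at 51.9. Xenobiotic P450 genes had 10 of 14 (0.408) and no tall peak, the highest being 27.9 at Cyp2b10.

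**Figure D5:**
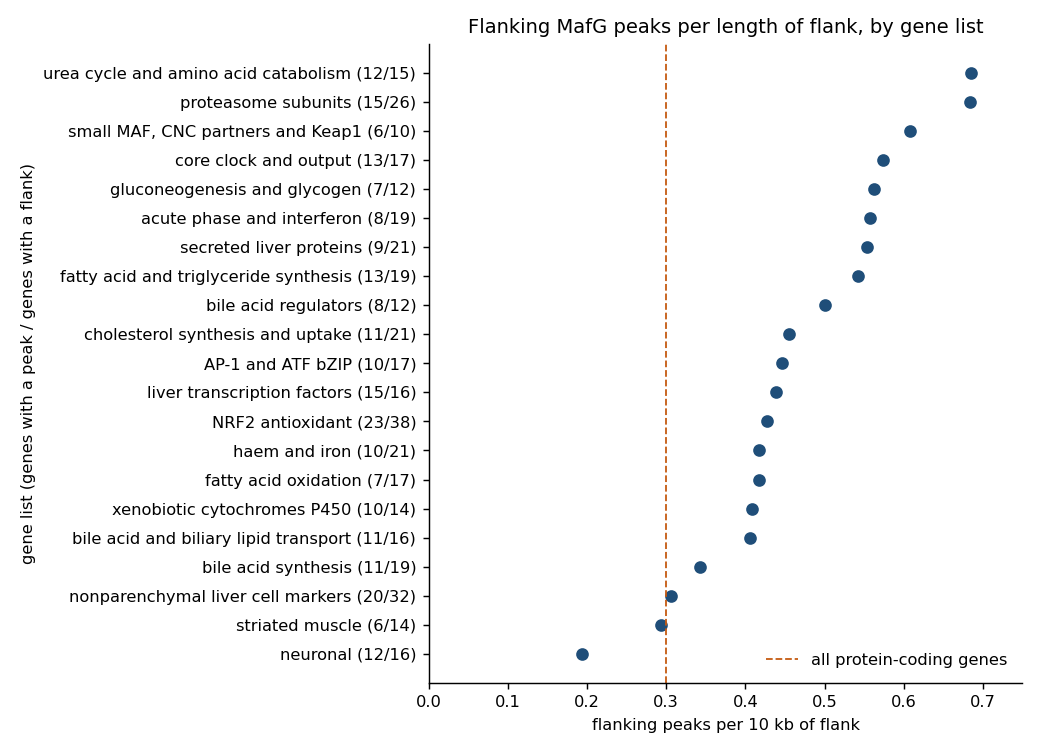
Gene-flanking peaks per 10 kb of flank for 21 gene lists (in brackets, genes with a peak and genes with a flank); dashed line, all protein-coding genes (0.2995). The lists run from 0.193 for neuronal genes to 0.684 for urea cycle and amino acid catabolism, and 2 lists lie below the line.

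Cell type markers were counted in the same way, since peaks hold no RNA level by which the labelled tissue could be checked. Secreted liver proteins, which mark hepatocytes, had 9 of 21 genes with a peak (42.9%, against 47.0% of all genes with a flank), at 0.554 per 10 kb. The tallest were at Ahsg (60.8), Fgg (46.6), Ttr (35.3) and Alb (25.0), while Apoa1, Apoe and Serpina1a were among the genes without one. Markers of other liver cells had 20 of 32 (0.306 per 10 kb), with Sox9 at 105.8 and Spp1 at 100.9. Neuronal genes had 12 of 16 in long flanks (0.193 per 10 kb) with Nrxn3 at 150.0, and striated muscle genes 6 of 14 (0.293) with Tnnt2 at 135.3. Genes of tissues that were not sampled thus also had tall flanking peaks. A tall peak was found at 1 of 21 secreted liver protein genes (4.76%), 2 of 16 neuronal genes (12.5%) and 2 of 14 muscle genes (14.3%). For markers of other liver cells it was 4 of 32 (12.5%), and for all genes 8.25%. These shares rest on so few genes that their order is not a result. Per length of flank, neuronal and muscle genes had fewer peaks than secreted liver proteins. The flanks of the latter were shorter (median 7.86 kb, against 43.5 kb for neuronal and 9.40 kb for muscle genes). Some genes stand in more than 1 list, such as Hmox1 and Hnf4a.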

How the data were processed

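Chromatin immunoprecipitation with sequencing of mouse liver gave 2 BLRP-MafG and 2 BLRP control libraries and 1 deposited peak list. Bowtie2, HOMER and build mm10 are named, per the submitters' processing notes, without versions. The authors called peaks of 200 bp, at least 400 bp apart, on 1 BLRP-MafG against 1 control tag collection, per the file headers, which do not say if a collection held 1 library or both. Kept peaks had at least 10-fold over control (Poisson p of 1e-06) and 4-fold over the surrounding 10 kb (p of 0.0001). The caller's stated threshold for a false discovery rate of 0.001 was 11 tags. It was not a floor on the listed heights, as the lowest gene-flanking peaks, of 4.41, came to 9 tags.

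The authors deposited a BLRP-MafG tag signal scaled to 10000000 tags and an unscaled control signal, in which 0.5 stands for 0 tags. Deposited folds are linear ratios, the deposited p-values are the caller's Poisson p-values, and the deposited peak score was not used further. Multiplied back by the total of 20406492, the normalized signal came within 0.102 of whole tags. These gave exact 95% Poisson intervals of heights and conditional binomial intervals of ratios to control. A count of 0 control tags was set to a floor of 3. Without molecular identifiers, intervals and floors cover counting error only.

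Each midpoint was set against RefSeq genes of GRCm38.p6. Flank length is the sum of bases outside protein-coding genes, over 1 to 50 kb away, given to the nearest gene; genes nested in others cannot be nearest. Position code was checked on a made-up gene map with known answers. The members and the 21 gene lists (421 genes, 414 on chromosomes 1 to 19) were chosen with earlier results of these data known. Named genes are the 15 nearest to most peaks, those of the 15 tallest peaks and of the tallest in each distance class, the 5 densest with at least 10 kb of flank and 3 peaks, up to 4 per list by tallest peak, and Cyp7a1, Cyp8b1, Cyp27a1 and Cyp7b1. Others, the values of further peaks of list genes, the gap of Hmox1 and the counts by spacing were chosen after values were seen. Alternatives were stricter folds (20 over control, 10 over surroundings), limits of 2 or 25 kb, whole peaks, non-coding genes counted as genes, and both genes of a gap. Python 3.11.15, NumPy 2.4.6, pandas 2.3.3, SciPy 1.17.1 and matplotlib 3.10.9 were used.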

Additional observations from a re-analysis of the deposited data

How the results depend on the processing

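No paired analysis was possible because the list has no value per library, and for the same reason no library could be left out. With only peaks of at least 10-fold over their surroundings, peaks per Mb at 1 to 5 kb were 0.917 times those at 20 to 50 kb, against 1.20 before. The share of peaks that were gene-flanking was then 24.1%, their median height 18.6, the correlation of height with distance -0.0610, the share of tall peaks 2.81 percentage points higher at 1 to 5 kb than at 20 to 50 kb (before, 9.78% against 10.7%), and 37.8% of genes with a flank had a peak. Part of this follows from the filter, which removes low peaks in high surroundings. With at least 20-fold over control the median was 14.7 and the gene share 36.5%. Over 2 kb, the gene-flanking share was 23.0%. Up to 25 kb, it was 17.8%, the density ratio 1.13 and the gene share 41.5%. Outside non-coding genes as well, these were 20.3%, 1.28 and 42.0%. With both genes of a gap, the gene share was 60.2%. The ratio of peaks before gene starts to those after gene ends stayed between 1.02 and 1.05. Its interval, which treats peaks as independent, was 0.987 to 1.08 with 20-fold over control and 0.979 to 1.06 outside non-coding genes. Whether the ratio differs from 1 was not tested. Alternatives for this ratio were chosen after seeing the data. Depth limits single low peaks: the median peak rests on 26 tags, and the control on 1.05 tags on average.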

Other observations

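The 189 peaks of height 200 or more had 185 nearest genes, and 4 genes had 2 of them. Of the 189, 50 were the only gene-flanking peak at their gene, and of all 16497 gene-flanking peaks 4477 were, a similar share. Besides Hmox1, the genes with 2 were Auh, Prok1 and Gramd3. Auh had 506.2 at 3475 bp and 374.9 at 18030 bp, and Prok1 had 315.6 and 289.1 at 14407 and 16494 bp. Gramd3 had 253.8 and 263.2 at 8732 and 18635 bp. Auh encodes an enzyme of leucine breakdown, and Prok1 encodes prokineticin 1, a secreted peptide. The pairs were picked after their values were seen, and no test was made.

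Of the microRNA hairpins in the RefSeq table (chromosome 18 left out), 1 overlapped a gene-flanking peak. That peak stood at 415.1 (387.6 to 444.0), 2386 bp from Hopx, a homeodomain-only protein. It lies at chr5:77084500-77084700, over the hairpin Gm51293, with 847 BLRP-MafG tags and 0 control tags. Neither TGACNNNGC nor TGCTGA occurs in the hairpin's bases, which cover only 63 bases of the peak.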
